A study of Mus musculus with 4 samples.

Results

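The effect of IL6 on T-effector cells in the absence of TGFb was taken from 6 channels of the 26 in the series. These are the T-effector channels of the 3 arrays of mouse lymph node CD4 T cells cultured with IL2 and IL6 and of the 3 arrays cultured with IL2 alone, chosen by the sample type and the dye that the labels give for each array. All cells had been grown on anti-CD3 (1 ug/ml), which engages the T cell receptor, for 4 days, and then kept for 3 days in IL2 (100 units/ml), the growth factor of activated T cells. The IL6 group received IL6 at 25 ng/ml in addition, and other arrays of the series had TGFb at 4 ng/ml with or without IL6. On every array the T-effector RNA of a condition was hybridised in 1 dye and its Treg RNA in the other, in a series on how TGFb converts cells to Treg and how IL6 inhibits this. The labels do not give the way these cell samples were parted. They also do not say whether arrays of 1 condition came from separate cultures or animals, so the p-values measure only the spread between arrays, which may be technical.

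IL6 binds its receptor chain Il6ra, which pairs with the signalling chain Il6st (gp130) and activates the transcription factor Stat3. Stat3 switches on the feedback inhibitor Socs3, and in activated CD4 T cells it drives Il21, a cytokine of follicular helper and Th17 cells that signals through Stat3 in turn. With TGFb present, IL6 steers CD4 T cells toward the Th17 lineage, which has Il17a and Il17f as its effector cytokines. The 6 channels without TGFb show the response to IL6 with no TGFb added.

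Between 55.4% and 65.9% of the probes were well above background in these 6 channels, and the number of arrays limits the precision. The 5 slides are lettered A to E. Slide A held IL2 array 1 and IL6 array 2 with T-effector RNA in the same dye, the other IL2 arrays lay on slides D and C, and the other IL6 arrays on slide E, where TGFb arrays lay too. In the T-effector channel of IL6 array 1, position on the slide accounted for 22.1% of the deviation of bright spots from their mean over all channels, against 2.62% to 3.79% in the other 5. Channels correlated at 0.98 to 0.99 within a group and at 0.97 to 0.99 between the groups, and they did not sort by treatment. IL2 array 2 was closer to IL6 array 3 (0.994) than to IL2 arrays 1 and 3 (0.987 and 0.984). IL6 array 2 was closer to IL2 arrays 1 and 3 (0.993 and 0.990) than to IL6 arrays 1 and 3 (0.980 and 0.987). The cause was not tested. All 13 measured genes of T cell identity were well above background in all 6 channels, and Foxp3, which defines regulatory T cells, was between 6.06 and 6.42 on the log2 scale, near the lowest signals measured. Signals are log2 values after normalization, arrays are numbered in the order of the labels, and each difference is IL6 minus IL2 as fitted with a term for dye, ± its standard error, with 3 arrays a group, so it can depart slightly from the difference of the group means.

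Of 19901 genes tested, 160 (0.804%) passed an adjusted p of 0.05 with limma's separate-channel fit, 78 higher (0.392%) and 82 lower (0.412%) with IL6. The median difference over all genes was 0.00 on the log2 scale, 33 of the 160 rose over 2-fold and 30 fell over 2-fold. In all 160 the 3 IL6 channels lay entirely above or below the 3 IL2 channels. Among all genes tested this held for 14.1%, 7% above and 7.12% below, and 4.87% had an unadjusted p under 0.05. The number of calls, which can include genes that are not among the 160, depended on single arrays. It was 96, 99 and 88 without IL2 array 1, 2 or 3, and 100, 169 and 94 without IL6 array 1, 2 or 3. Without slide E, and so with IL6 array 2 as the only IL6 array, it was 82 (63 higher and 19 lower), and it was 66 in a fit on the 6 channels alone.

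Each gene was taken at its brightest probe, and other probes of several genes named below gave smaller differences that did not pass: Cstdc6 (0.47), Igfbp4 (0.52), Il1r2 (0.58), Fasl (-0.35), Ifih1 (-0.29) and 6 of the other probes of Iglv1 (-0.60 to -0.36). Mgll and Smad3 each had 1 probe that was not well above background on any IL2 array (0.11 in both) and another that passed (1.64 and 0.83).

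**Figure D1:**
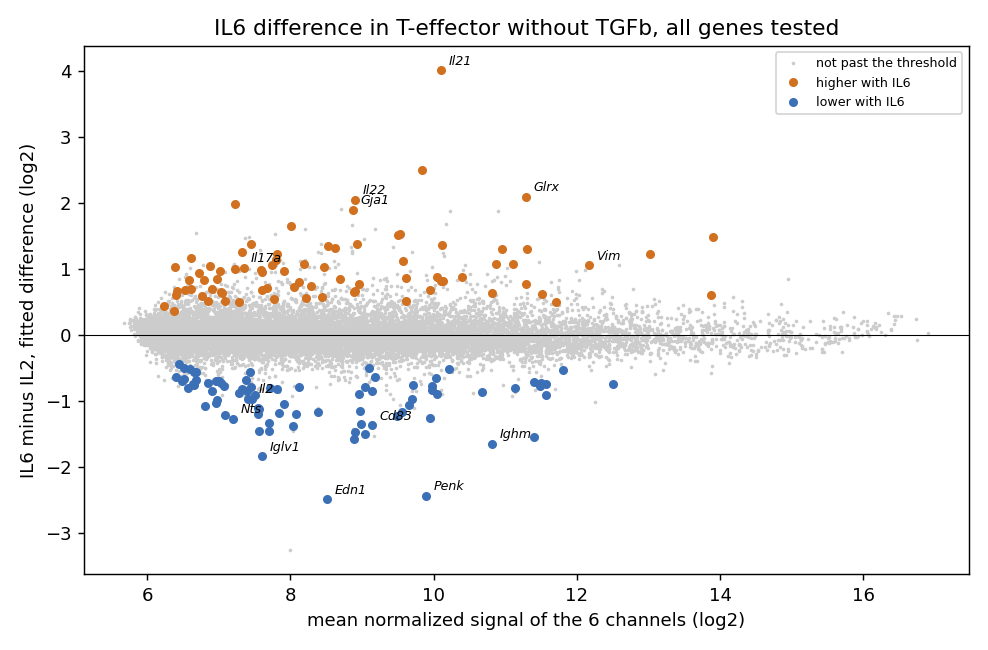
Fitted log2 difference (IL6 minus IL2, vertical axis) against the mean log2 signal of the 6 T-effector channels (horizontal axis) for 19901 genes; orange and blue points are the 78 genes higher and the 82 lower with IL6. Il21 stands alone at the top at 4.02, and Edn1 and Penk are the lowest of the genes past the threshold.

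Il21 had the largest rise of all genes past the threshold. Its log2 signal was 8.10, 7.92 and 8.15 on the IL2 arrays and 12.60, 11.97 and 11.88 on the IL6 arrays. Every IL6 channel was thus over 3 units above every IL2 channel, with IL6 array 1 the highest. The difference was 4.02 ± 0.38, a 16.2-fold rise (adjusted p = 3.97e-06), and it was 3.87 on slide A and 3.83 to 4.20 when each of the 13 arrays was left out in turn. In bulk RNA, a change in the share of cells that make a transcript and a change in its level per cell cannot be told apart, here or below.

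The other T cell cytokines moved less. Il22, a cytokine of Th17 and innate-like cells that acts on epithelia, was 7.93, 7.71 and 7.91 with IL2 and 9.89, 10.21 and 9.76 with IL6. Its groups were far apart, but the standard error, which the fit takes from all conditions, was large, and the difference of 2.05 ± 0.47 passed by a small margin (adjusted p = 0.0372). The call was lost without any 1 of 11 of the 13 arrays, all but IL6 arrays 1 and 2. Differences were 1.98 to 2.20 and adjusted p 1.44e-06 to 0.239 over all 13. In the Treg channels of IL6 arrays 1, 2 and 3, which share the fit, Il22 was 10.20, 7.55 and 9.98. A dimmer Il22 probe gave 1.81 (adjusted p = 0.055).

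Il17a, the cytokine that names the Th17 lineage, was 6.90, 6.70 and 6.81 with IL2 and 8.31, 7.68 and 7.70 with IL6. The IL6 channels were all higher, and IL6 array 1 again stood highest. Il17a rose by 1.02 ± 0.18, or 2.03-fold (adjusted p = 0.00388), from a signal near the low end of the scale, and kept its call without each of the 13 arrays. The size of the rise was not stable, with values from 0.77 to 1.69 over the alternatives. Without slide E the difference was 0.77 and no longer past the threshold.

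Il2, the growth factor that activated T cells make for themselves, fell. Its signal was 7.92, 7.85 and 8.05 with IL2 added and 7.04, 6.93 and 6.98 with IL2 and IL6. Each set of channels was tight, and they did not overlap. The difference was -0.96 ± 0.10 (adjusted p = 1.74e-05), and a dimmer probe gave -0.56 (adjusted p = 0.172). Over the alternatives the Il2 difference was -1.72 to -0.75. Il3, a growth factor of blood cell precursors that activated T cells secrete, also fell (-0.80), as did Tnfsf4, the OX40 ligand (-0.89).

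Il4 and Il10 were higher in every IL6 channel without passing the threshold. Il4, the cytokine of Th2 cells, was 9.33, 9.20 and 9.42 with IL2 and 10.82, 11.21 and 11.05 with IL6. Within each group its SD was 0.11 and 0.20, while the fit, which shares its spread with the other conditions, gave 1.69 ± 0.53 (adjusted p = 0.276). It passed without IL6 array 2 (1.64, adjusted p = 1.44e-06) and in fits on the T-effector channels or the 6 channels alone, where the difference was 1.72 and 1.71. Without slide E the difference was 1.99. In the Treg channels of IL6 arrays 1, 2 and 3 Il4 was 10.47, 7.45 and 10.40. Il10, an anti-inflammatory cytokine that Stat3 can induce, was 7.50, 7.37 and 7.65 with IL2 and 8.0, 8.48 and 8.31 with IL6, a difference of 0.78 ± 0.31 (adjusted p = 0.72). Ifng, the Th1 cytokine, was between 13.36 and 13.62 in all 6 channels, among the brightest T cell genes, and differed by -0.03 ± 0.47 in the fit, with group means of 13.44 and 13.50.

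**Figure D2:**
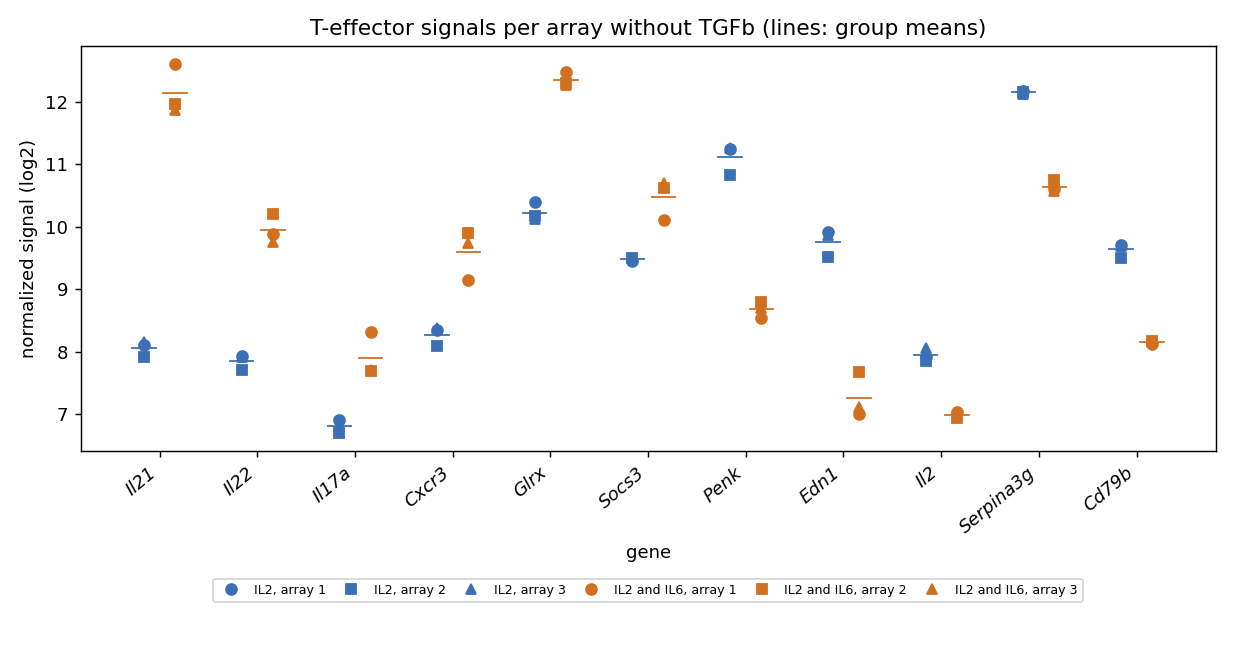
Normalized log2 signal (vertical axis) of 11 genes in the 3 IL2 (blue) and 3 IL2 and IL6 (orange) T-effector channels; symbols mark the array number and lines the group means. The groups do not overlap for any of the 11; Socs3 is the one whose difference did not pass the threshold.

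Of the 15 genes of the chain that carries and checks the IL6 signal none passed the threshold with limma in either direction. At an unadjusted p under 0.05, Socs3 was higher and Ptpn11, a phosphatase bound by Il6st, lower (-0.52). Their median difference was -0.00. Il6ra was 6.39, 7.04 and 6.66 with IL2 and 7.02, 6.60 and 7.18 with IL6 (0.25 ± 0.25), and a second probe gave -0.04. Il6st was 8.24, 8.13 and 8.30 against 8.08, 8.14 and 8.14 (-0.10 ± 0.12), and Stat3 10.81, 10.90 and 10.90 against 10.49, 10.66 and 10.90 (-0.16 ± 0.16). In these 3 genes the channels of the groups overlapped.

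Socs3, the feedback inhibitor, was higher in each IL6 channel and missed the threshold. With IL2 it was 9.45, 9.49 and 9.5, and with IL6 10.11, 10.62 and 10.71. The IL2 arrays were nearly identical, and IL6 array 1 was the lowest of the IL6 arrays. The difference was 1.04 ± 0.26 (adjusted p = 0.0657), and it passed in 6 of the 31 alternative fits, among them the one without IL2 array 1 (1.16) and the one with slide as a block (1.32).

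Of 32 genes that IL6 and Stat3 are known to induce, 5 rose and 0 fell, beside 78 and 82 of 19901 genes in all (0.392% and 0.412%). These shares apply to each list below. The lists overlap, so that Il21 and Il1r1 are each counted in more than 1. The list's median difference was 0.38, against 0.00 over all genes, and 28 of 32 differences were above 0. Besides Il21 the 5 were Vim, an intermediate filament of motile cells (1.06 ± 0.24, adjusted p = 0.0345), Prdm1, the repressor Blimp-1 (0.98 ± 0.23, adjusted p = 0.0474), Il1r1 (0.66 ± 0.14, adjusted p = 0.0258) and Fos, a subunit of AP-1 (0.50 ± 0.10, adjusted p = 0.0118). Only Il21 kept its call without each array in turn. The call of Prdm1 was lost without any 1 of 10 arrays, of Vim without any 1 of 7, of Il1r1 without any 1 of 6 and of Fos without any 1 of 4, so that 1 to 5 members of the list passed, 2 of them without IL6 array 1 and 1 without slide E. The list's median stayed between 0.32 and 0.44 without each array. Bcl3, a co-regulator of NF-kB, was 9.66, 9.80 and 9.80 with IL2 and 9.87, 10.31 and 10.62 with IL6 (0.56 ± 0.30), and Fosl2, Cebpb and Hif1a were also higher in all 3 IL6 channels without passing (0.70, 0.56 and 0.48).

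Stat factors bind sites of the general form TTCNNNGAA. The letters read the same on both strands, and the 300 bases around each gene's start (250 before it and 50 after) in the RefSeq promoters of build GRCm38.p6 held them in 8.3% of 32851 promoters. A promoter was matched to 12363 of the genes tested, of which 8.52% held a match, and to 117 of the 160 genes past the threshold, of which 10 did (8.55%). These were 3 of 59 that rose and 7 of 58 that fell. The promoter of Il21, the gene with the largest rise, had no such letters in the window. Socs3 and Il1r2, a decoy receptor for IL1 that rose, each had at least 1 match. The first is shown in capitals, and further matches in Socs3 were not counted. The sequences lie at chr3:37232637-37232836 (minus strand, the 200 bases before the start of Il21), chr11:117969467-117969565 (minus strand, with the match beginning 154 bases before the start of Socs3) and chr1:40085937-40086035 (plus strand, 111 bases before the start of Il1r2).
Il21: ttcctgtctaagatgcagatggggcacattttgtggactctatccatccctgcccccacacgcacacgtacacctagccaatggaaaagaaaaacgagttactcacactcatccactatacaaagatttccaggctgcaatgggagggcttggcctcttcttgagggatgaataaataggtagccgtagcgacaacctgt
Socs3: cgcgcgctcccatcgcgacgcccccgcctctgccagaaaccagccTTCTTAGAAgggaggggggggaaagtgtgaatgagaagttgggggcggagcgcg
Il1r2: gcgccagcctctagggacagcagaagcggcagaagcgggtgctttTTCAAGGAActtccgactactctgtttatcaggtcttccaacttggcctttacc

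Of the 18 Th17 genes 4 rose and 0 fell, beside 0.392% and 0.412% of all genes (list median 0.33). The 4 were Il21, Il22, Il17a and Il1r1, the receptor through which IL1 acts on Th17 cells. Il1r1 was 6.92, 6.42 and 6.67 with IL2 and 7.42, 7.52 and 7.23 with IL6. Its groups were apart by a small margin, and its call was lost without IL2 array 2 or 3 (0.57 and 0.69), IL6 array 1 or 3 (0.67 and 0.69) and 2 arrays with TGFb. Il17f was 6.37, 6.39 and 6.37 with IL2 and 6.82, 6.75 and 6.80 with IL6. The channels barely varied and did not overlap, but the difference did not pass (0.39 ± 0.13, adjusted p = 0.35). Over the alternatives the Il17f difference was 0.28 to 1.09 and passed in none. Rora, a nuclear receptor of Th17 cells, differed by 0.25 ± 0.18. Maf, a transcription factor that promotes Il21 and Il10, spread from 10.71 to 12.42 over the IL2 channels and from 11.24 to 12.46 over the IL6 channels, with no separation at its brightest probe (0.46 ± 0.39). Its probes disagreed: another, well above background in all 6 channels, gave a rise of 2.04 ± 0.26 (adjusted p = 0.000179 over all probes), and dimmer ones gave 0.71 and 0.37 without passing, so the level of Maf is not settled by these arrays. The number of Th17 genes that passed was 2 to 4 without each array and 2 without slide E.

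Several chemokine receptors rose. Ccr2, the receptor for the monocyte-attracting chemokine Ccl2, was 6.61, 6.82 and 6.75 with IL2 and 8.01, 7.82 and 7.92 with IL6. It rose by 1.26 ± 0.15 from a low signal (adjusted p = 8.07e-05), with a dimmer probe at 0.68. Values for Ccr2 were 0.86 to 2.09 over the alternatives. Cxcr3, a receptor of Th1 cells, was 8.34, 8.08 and 8.38 with IL2 and 9.15, 9.90 and 9.74 with IL6. It rose by 1.39 ± 0.22 (adjusted p = 0.00193), with IL6 array 1 the lowest of its group. Ccr2 and Cxcr3 kept their call without each of the 13 arrays.

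In the list of cytokine and chemokine receptors 6 of 24 rose and 0 fell, beside 0.392% and 0.412% of all genes (list median 0.19). Besides Cxcr3 and Ccr2 they include Il1r2 (1.01 ± 0.23, adjusted p = 0.0412), Cxcr6, a receptor of tissue-resident T cells (0.88 ± 0.19, adjusted p = 0.0267), and Il1r1. Cxcr6 lost its call without IL2 array 2 or 3, IL6 array 1 or 2 and 1 array with TGFb and IL6 (0.78 to 1.02 over all 13), and Il1r2 without any 1 of 12 arrays (0.87 to 1.11). The count was 3 to 6 without each array, and 3 both without IL6 array 1 and without slide E. Il7r, the IL7 receptor of resting T cells, was just short of the threshold (0.72, adjusted p = 0.0581), as was Cxcr5, the receptor of follicular helper cells, in the other direction (-0.78, adjusted p = 0.0581).

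Other large rises were spread over genes of unlike function. Glrx, the thiol reductase glutaredoxin, was 10.39, 10.17 and 10.12 with IL2 and 12.47, 12.31 and 12.27 with IL6 (2.1 ± 0.21, adjusted p = 6.78e-06). Gja1, the gap junction protein connexin 43, was 8.2, 7.90 and 7.53 with IL2 and 10.04, 9.77 and 9.79 with IL6 (1.90 ± 0.26, adjusted p = 0.00039). Mgll, the lipase that breaks down monoglycerides including an endocannabinoid, was 7.23, 7.04 and 7.23 with IL2 and 8.62, 9.09 and 8.81 with IL6 (1.66 ± 0.28, adjusted p = 0.00313). For these 3 genes the lowest IL6 channel was over 1 unit above the highest IL2 channel. The unconventional myosin Myo6 (1.54 ± 0.19, adjusted p = 0.000119) and the kinesin subunit Kif3a (1.32 ± 0.20, adjusted p = 0.00103) rose as well. Glrx, Gja1, Mgll, Myo6 and Kif3a kept their calls without each of the 13 arrays.

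Serpinb5, the serpin maspin of epithelia, was not well above background on any IL2 array (6.22, 6.15 and 6.31) and was so on all IL6 arrays (7.83, 8.55 and 8.30). The fitted difference was 1.99 ± 0.32 (adjusted p = 0.00196), with values from 1.56 to 4.51 over the alternatives. Since the IL2 signals were not well above background, the size of this rise is not a measured one. Cstdc6, a stefin that inhibits cysteine proteases, rose by 1.38 ± 0.12 (adjusted p = 1.5e-06) and its relatives Csta2 and Stfa2l1 by 1.07 and 0.67. Ctla2b and Ctla2a, inhibitors of cathepsins, rose by 1.36 and 1.30. Stefins and Ctla2 genes have near-identical copies whose RNA the probes may share, so these rises may not be separate. Ctla2b lost its call without any 1 of 8 arrays (1.27 to 1.43).

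Akr1c18, an aldo-keto reductase that inactivates progesterone, had a bright signal and rose. It was 12.96, 13.29 and 13.17 with IL2 and 14.79, 14.52 and 14.69 with IL6. The groups were over 1 unit apart, and the difference was 1.5 ± 0.34 (adjusted p = 0.0412). The call was lost without any 1 of 12 arrays (1.36 to 1.60 over all 13). The exception was IL6 array 2, without which the adjusted p was 9.18e-07. In the Treg channels of IL6 arrays 1, 2 and 3 Akr1c18 was 14.35, 12.31 and 14.43. The transcript AK013239 and Speer3, a gene of testis, rose by 1.52 ± 0.34 and 1.36 ± 0.28. In both, IL6 array 1 stood above the other IL6 arrays (11.34 against 9.72 and 9.83, and 9.82 against 8.69 and 9.25). Without that array the differences were 1.04 and 1.12 and neither passed.

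Regulators were among the smaller rises. Id2, an inhibitor of E proteins that effector T cells need, was 12.46, 12.34 and 12.42 with IL2 and 13.68, 13.77 and 13.46 with IL6. The channels were about 1 unit apart, and it rose by 1.23 ± 0.16 (adjusted p = 0.000156), with 1.27 at a second probe. Smad3, which carries the TGFb signal, rose by 0.80 ± 0.13 (adjusted p = 0.00194) although no TGFb had been added. Id2 and Smad3 were 2 of the 20 TGFb response genes, of which 0 fell (median 0.06), and both kept their calls without each array. Ctla4, an inhibitory receptor, was 7.99, 7.90 and 7.81 with IL2 and 8.93, 8.55 and 8.57 with IL6 (0.75 ± 0.16, adjusted p = 0.0304). It was the only called gene among 20 Treg core genes (median 0.07), and its call was lost without any 1 of 7 arrays, among them IL2 arrays 1, 2 and 3 (0.74, 0.77 and 0.72) and IL6 array 1 (0.65). Igfbp4, which binds insulin-like growth factors, rose by 1.06 ± 0.23 (adjusted p = 0.023), and its call was lost without IL2 array 2 or 3 and without each IL6 array (0.95 to 1.20 over all 13).

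The 2 largest falls among genes past the threshold were in precursors of peptide signals, Edn1 and Penk. Penk, the precursor of the opioid enkephalins, was 11.25, 10.84 and 11.26 with IL2 and 8.54, 8.80 and 8.69 with IL6. The highest IL6 channel was over 2 units below the lowest IL2 channel. Penk fell by 2.43 on the log2 scale, with a standard error of 0.21 (5.41-fold, adjusted p = 1.13e-06), and the difference was -2.46 on slide A and -2.58 to -2.32 without each array in turn. A dimmer Penk probe gave -1.18. Edn1, the precursor of the vessel-constricting peptide endothelin 1, was 9.91, 9.51 and 9.86 with IL2 and 7.0, 7.68 and 7.11 with IL6. The gap was again wide, with IL6 array 2 the highest of its group, and Edn1 fell 5.59-fold (-2.48 ± 0.32, adjusted p = 0.000186). Nts, the precursor of neurotensin and not a member of the list of peptide signalling genes, was 7.80, 7.74 and 7.95 with IL2 and 6.53, 6.55 and 6.63 with IL6 (-1.26 ± 0.14, adjusted p = 3.09e-05). Penk and Edn1 were the 2 of 9 measured genes of the list that passed, 0 rose, and the list's median was -0.03. Penk, Edn1 and Nts passed in 31 of 31 alternative fits, but the size of the fall in Nts was -2.58 to -0.90 over the alternatives. Hdc, which makes histamine, fell by -1.15.

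The serpins Serpina3g and Serpina3f fell together. Serpina3g, an inhibitor of lysosomal proteases in T cells, was 12.18, 12.16 and 12.13 with IL2 and 10.61, 10.74 and 10.58 with IL6. Serpina3f was 9.64, 9.80 and 9.85 with IL2 and 8.52, 8.19 and 8.25 with IL6. In both genes every IL6 channel was over 1 unit below every IL2 channel, and the differences were -1.54 ± 0.19 and -1.5 ± 0.21 (adjusted p = 0.000119 and 0.000594). The genes are neighbours in a family of close copies, so their probes may share RNA. Both promoters held the letters TTCNNNGAA, and the stretches around the match, shown because these genes moved together, were alike in 53 of 78 bases (67.9%) when lined up at the match without gaps. The match begins 121 bases before a start of Serpina3f and 33 bases before the start of Serpina3g, at chr12:104214378-104214476 and chr12:104236069-104236146 (plus strand of GRCm38.p6). The capitals mark the match.
Serpina3f: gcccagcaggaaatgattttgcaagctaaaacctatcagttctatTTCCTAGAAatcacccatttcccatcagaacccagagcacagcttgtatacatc
Serpina3g: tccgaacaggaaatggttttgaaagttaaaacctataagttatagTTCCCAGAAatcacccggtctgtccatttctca

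Further falls included Cd83, Ifih1 and Dapl1. Cd83, a surface protein of activated lymphocytes, was 9.89, 9.70 and 9.78 with IL2 and 8.50, 8.54 and 8.46 with IL6 (-1.36 ± 0.22, adjusted p = 0.00165). Ifih1, the RNA sensor MDA5, was 9.61, 9.75 and 9.71 with IL2 and 8.25, 8.28 and 8.32 with IL6 (-1.35 ± 0.16, adjusted p = 5.13e-05). Dapl1, a gene of resting T cells, was 8.74, 8.63 and 8.76 with IL2 and 7.47, 7.36 and 7.23 with IL6 (-1.38 ± 0.15, adjusted p = 2.52e-05). In each of the 3 the gap between the groups was wider than 1 unit and the channels of a group lay within 0.3 units. Ifih1 was the 1 gene of 25 interferon-induced genes that fell, and 0 rose (median 0.13). Rtp4 and Zbp1 of that list were higher in all IL6 channels without passing (0.86 and 1.04). Nr4a2, an immediate early nuclear receptor, fell by 0.89 on the log2 scale with a standard error of 0.13 (adjusted p = 0.000825). Dapl1 was the 1 gene of 16 naive and memory genes that fell; Igfbp4 rose, 11 of the 16 differences were above 0 and the median was 0.28. Nr4a2 was the 1 of 22 AP-1 and immediate early genes that fell, and Fos the 1 that rose (median 0.07).

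Of 22 Th1 and cytotoxic genes 1 rose, Cxcr3, and 3 fell, beside 0.392% and 0.412% of all genes. The list median was -0.04. Stat4, which carries IL12 signals, was 10.34, 10.38 and 10.37 with IL2 and 9.82, 9.45 and 9.48 with IL6 (-0.83 ± 0.13, adjusted p = 0.00136). Fasl, the death receptor ligand of killer cells, fell by 0.81 (adjusted p = 0.0113), and Nkg7, a protein of cytotoxic granules, by 0.73 (adjusted p = 0.0474). Stat4 kept its call without each array. Fasl lost it without IL2 array 3 or IL6 array 1 or 3 (-0.78, -0.80 and -0.76), and Nkg7 without any 1 of 11 arrays (-0.80 to -0.63). Gzmb, the granule protease granzyme B, was above 14.5 in all 6 channels and differed by 0.25 ± 0.25. Xcl1, a chemokine of activated CD8 T cells and NK cells, was 10.08, 10.09 and 10.11 with IL2 and 9.08, 8.73 and 8.81 with IL6 (-1.22 ± 0.21, adjusted p = 0.00374). It was the 1 called gene of 12 CD8 T cell and NK cell markers, and their mean signal was 7.99, 7.87 and 8.01 with IL2 and 7.73, 7.85 and 7.76 with IL6. Without IL6 array 1 the Th1 list had 1 rise and 1 fall. Whether CD8 T cells or NK cells have a part in these falls was not tested.

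Follicular helper genes split. Of 13 measured, Il21 rose and Btla and Cd200, both inhibitory surface proteins, fell (list median -0.23). Btla was 10.83, 11.15 and 11.39 with IL2 and 10.33, 10.16 and 10.16 with IL6 (-0.86 ± 0.15, adjusted p = 0.0052), and lost its call without IL2 array 3 (-0.75). Cd200 was 11.82, 11.94 and 11.83 with IL2 and 11.30, 11.002 and 10.98 with IL6 (-0.77 ± 0.14, adjusted p = 0.00471). Of 15 Th2 genes none passed in either direction with limma, and 4 were higher and 0 lower at an unadjusted p under 0.05 (median 0.25). In a fit on the T-effector channels only, 3 of the 15 passed as higher, and without IL6 array 2, 2 did. Gata3, the Th2 regulator, differed by 0.10 ± 0.48, Il2ra, the high-affinity chain of the IL2 receptor, by 0.49 ± 0.23, and Foxp3 by 0.19 ± 0.23. A dimmer Il2ra probe gave 0.74 (adjusted p = 0.0494).

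Lists of general cell state had no gene past the threshold. Small differences of the 30 cell cycle genes leaned down: 6 of 30 were above 0, beside 10126 of 19901 genes in all. In 6 of them all IL6 channels lay below all IL2 channels and in 0 above, beside 7.12% and 7% of all genes. None of the 30 passed in either direction with limma (median -0.12, with 0 higher and 1 lower at an unadjusted p under 0.05). The same held for 23 genes of glycolysis and hypoxia (median 0.05; 2 higher and 0 lower), 20 of cholesterol synthesis (median -0.03; 0 and 0), 19 targets of IL2 and STAT5 (median 0.10; 2 and 1) and 13 of the Bcl2 family (median 0.00; 1 and 3). The counts in brackets are those at an unadjusted p under 0.05. In some alternatives 1 gene of the glycolysis, IL2 and STAT5 or Bcl2 list passed, for example 1 of glycolysis and hypoxia without IL6 array 2 and 1 IL2 and STAT5 target without IL6 array 1.

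**Figure D3:**
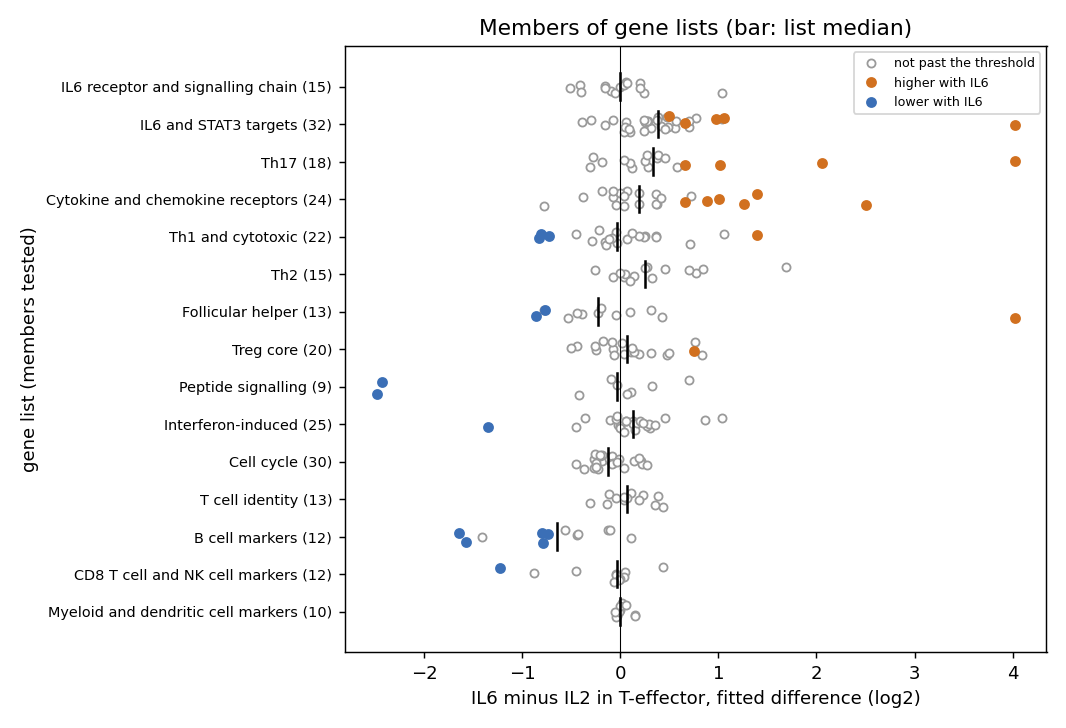
Fitted log2 difference (IL6 minus IL2, horizontal axis) of the tested members of 15 gene lists; filled points passed an adjusted p of 0.05, open points did not, and black bars are list medians. The medians of the IL6 and STAT3 and Th17 lists lie at 0.38 and 0.33, and that of the B cell markers at -0.65.

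Markers of B cells fell together in the same channels. Their mean log2 signal over 12 measured genes was 7.63, 7.65 and 7.66 with IL2 and 6.93, 6.88 and 7.03 with IL6. The groups did not overlap, and the list's median difference was -0.65. Of the 12, 5 fell and 0 rose, beside 0.412% and 0.392% of all genes. Ighm, the heavy chain of IgM, was 11.59, 11.61 and 11.75 with IL2 and 9.997, 10 and 9.951 with IL6 (-1.65 ± 0.13, adjusted p = 4.01e-07). Cd79b, a chain of the B cell receptor, was 9.71, 9.51 and 9.69 with IL2 and 8.11, 8.16 and 8.16 with IL6 (-1.57 ± 0.27, adjusted p = 0.00344). Fcer2a (-0.80), the low-affinity receptor for IgE, and Spib (-0.74), a transcription factor of B cells, were also among the 5. Fcer2a was well above background on 1 of 3 IL6 arrays and Spib on 2 of 3, so the size of their falls depends on the background correction, with values from -2.93 to -0.57 and from -2.16 to -0.52 over the alternatives. The B cell antigen Ms4a1 was lower in every IL6 channel without passing (9.57 against 8.17 on average, a difference of -1.41 ± 0.69), and the receptor chain Cd79a was near background in both groups (6.22 and 6.12 on average).

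Other genes with roles in B cells or antigen presentation fell too; these were chosen after their values were seen. They include Iglv1, a lambda light chain segment (8.64, 8.33 and 8.52 with IL2, 6.65, 6.73 and 6.79 with IL6), Ly86, the partner of the receptor RP105 (-1.33), Mzb1 (-1.17), Tnfrsf13c, the BAFF receptor (-1.11), Mef2c (-0.99), Btk (-0.87), Cd74 (-0.79) and H2-Aa (-0.77). Of 12 B cell markers, 4 were well above background in all 6 channels, and each of the 12 was so in at least 1. Without each array 4 or 5 of the 12 passed, 4 without IL6 array 1 and 2 without slide E, with list medians of -0.69 to -0.61 and -0.66. In contrast the 13 T cell genes had a mean signal of 11.47 to 11.54 with IL2 and 11.48 to 11.65 with IL6. Of 10 myeloid and dendritic cell markers 0 passed in either direction with limma, also 0 at an unadjusted p under 0.05. Only 3 of these 10 were well above background in all 6 channels, and 1 was so in none. Their mean signal was 6.68 to 6.79 with IL2 and 6.62 to 6.82 with IL6, so low that a fall could be missed. What part B cells have in the other falls was not tested.

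**Figure D4:**
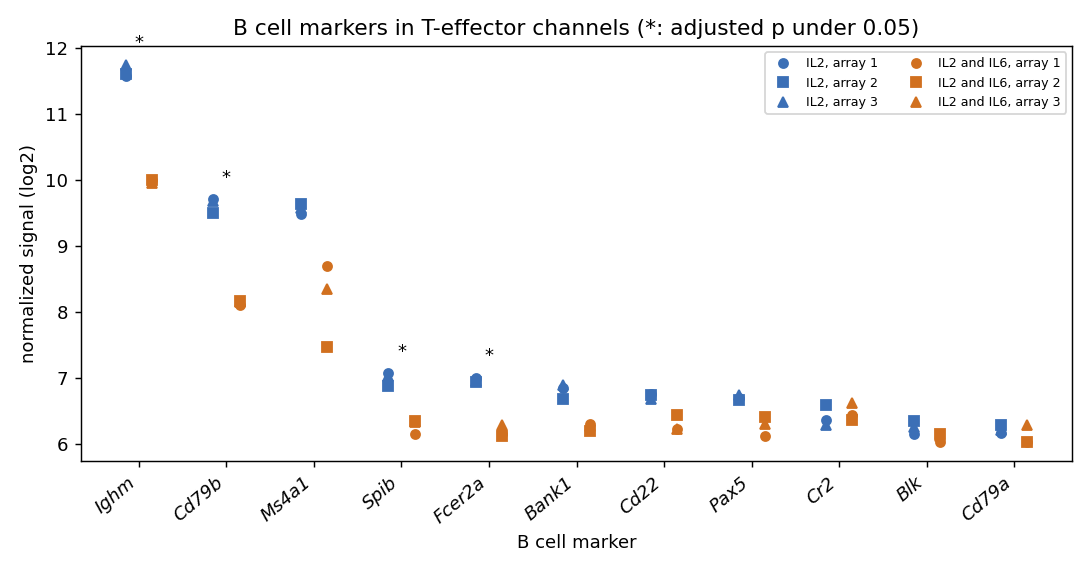
Normalized log2 signal (vertical axis) of 11 B cell markers in the 3 IL2 (blue) and 3 IL2 and IL6 (orange) T-effector channels; stars mark the 4 of these past the threshold. In Ighm and Cd79b the IL6 channels lie together, over 1 unit below the IL2 channels.

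The same comparison was made with TGFb present, on other arrays: 4 with TGFb and IL6 against 3 with TGFb. There 1496 genes passed (7.52%), and 106 of the 160 genes called without TGFb were among them, 66.2% of these and 7.09% of the 1496. Of the 106, 101 had the same direction, and of all 160 the sign was shared by 141 (66 of 78 that rose and 75 of 82 that fell). Il21 rose by 4.33 ± 0.36 with TGFb and by 4.02 ± 0.38 without it, and Il17a by 1.20 and 1.02. The differences between these were -0.31 ± 0.53 and -0.17 ± 0.24 and did not pass. Penk fell by 1.52 with TGFb and by 2.43 without (a difference of -0.92 ± 0.29, adjusted p = 0.207).

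Tested directly, the IL6 difference without TGFb departed from that with TGFb in 199 genes (1%), 57 higher and 142 lower without TGFb, and in 26 of the 160. Il17f was at 6.37 to 6.39 with IL2 and 6.75 to 6.82 with IL2 and IL6, and it rose by 3.57 ± 0.12 when IL6 was added to TGFb. The gap of -3.18 ± 0.18 had an adjusted p of 8.25e-10. Socs3 rose by 2.98 with TGFb, against 1.04 without (-1.94 ± 0.35, adjusted p = 0.00438), and Il6st by 1.11, against -0.10 without (-1.20 ± 0.17, adjusted p = 0.000341). Il10 rose by 2.50 with TGFb, a gap of -1.72 ± 0.43 that missed the threshold (adjusted p = 0.0596). Il1r1 (-1.42), Igfbp4 (-1.42) and Myo6 (-1.47) also rose less without TGFb. Serpinb5 was 6.03 to 6.06 on the TGFb arrays and 10.16 to 10.90 with TGFb and IL6. With IL2 alone it was not well above background on any array, so the size of that gap was not measured. Cxcr5, the follicular helper receptor, was at -0.78 without TGFb and at 1.33 with it (a gap of -2.11 ± 0.26, adjusted p = 6.7e-05), and Ahr, a transcription factor that promotes Il22 in Th17 cells, was at 0.12 and 2.92 (a gap of -2.80 ± 0.27). Both were chosen after their values were seen.

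In other genes the difference was larger without TGFb or of opposite sign. Akr1c18 went opposite ways, up by 1.5 without TGFb and down by 1.16 with it (a gap of 2.66 ± 0.47, adjusted p = 0.00364). Without TGFb it lay between 12.96 and 13.29 on the IL2 arrays and between 14.52 and 14.79 on the IL6 arrays. Iglv1 and Ly86 fell without TGFb and differed by -0.01 and -0.12 with it (gaps of -1.83 ± 0.39 and -1.21 ± 0.18), as did Fcer2a (-0.80 and -0.17, a gap of -0.63). Nts fell by 1.26 without TGFb and differed by -0.32 with it (a gap of -0.94 ± 0.19), and the transcript AF152371 fell by 1.47 and differed by 0.03 (a gap of -1.5). On the TGFb arrays without IL6 these genes were already low: Iglv1 at 6.36 to 6.68, Ly86 at 6.46 to 6.54, Fcer2a at 6.19 to 6.37, Nts at 6.39 to 6.55 and AF152371 at 6.12 to 6.54. Whether the low level there limited a further fall was not tested, so these gaps alone cannot tell whether the response to IL6 differed. Cd200 fell more with TGFb (-1.80 against -0.77, a gap of 1.03). The mean signal of the 12 B cell markers was already 6.78 to 7.14 on the TGFb arrays and was 6.66 to 7.01 with TGFb and IL6, and their part in these gaps was not tested. The number of genes that differed was 91 without slide B, which held only arrays with TGFb, and 31 with median centring (4 higher and 27 lower).

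The Treg samples lay on the same arrays in the other dye, so their values are not independent of the T-effector values. In them 191 genes (0.96%) passed, 80 of the 160 among them, and 157 of the 160 had the same sign. Il21 rose by 3.05 ± 0.38 in Treg and by 4.02 ± 0.38 in T-effector, and Penk fell by 2.18 and 2.43 (differences of 0.97 ± 0.41 and -0.26 ± 0.22, not past the threshold). The Treg channel of IL6 array 2 stood apart in some genes. In the Treg channels of IL6 arrays 1, 2 and 3 Il21 was 11.52, 9.63 and 11.87 and Ifng 13.23, 10.51 and 13.28. Penk, at 10.98, 10.78 and 10.90, showed no such gap. The part of this channel in the Treg comparison was not tested. Tested directly, 12 genes (0.0603%) differed between the sample types, 4 higher and 8 lower in T-effector, and 7 of the 160. Quantile normalization of all channels gave 5 higher and 6 lower, median centring 0 and 2. Il2 fell less in T-effector (-0.96 against -1.60, a difference of 0.64 ± 0.11, adjusted p = 0.0217), and Cstdc6 rose less (1.38 against 2.25, a difference of -0.87 ± 0.13, adjusted p = 0.00682). Ighm (-1.65 against -0.46) and Ly86 (-1.33 against -0.54) fell more in T-effector, by -1.18 ± 0.14 and -0.79 ± 0.14. The mean of the B cell markers in Treg was 7.23 to 7.56 with IL2 and 7.06 to 7.21 with IL6. The count of 12 was 182 without IL6 array 2 and 179 without slide E, 35 without IL2 array 1, and 5 both without IL2 array 2 and without IL6 array 3.

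**Figure D5:**
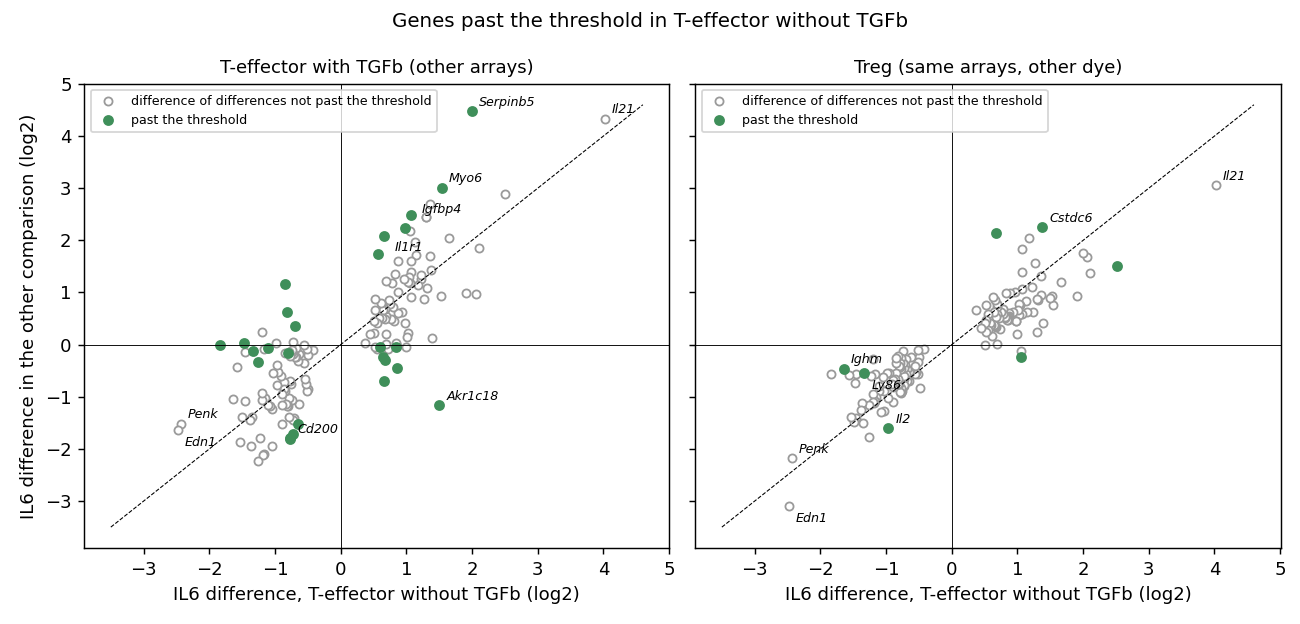
For the 160 genes past the threshold in T-effector without TGFb, which were chosen by the values on the horizontal axis, the log2 IL6 difference there is set against that in T-effector with TGFb (left, other arrays) and in Treg (right, same arrays); the dashed line marks equal differences. Green points, 26 on the left and 7 on the right, passed the test of the difference, among them Akr1c18, which lies below 0 on the left. Serpinb5 is plotted at its fitted value, which rests on IL2 signals that were not well above background.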

How the data were processed

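RNA levels come from 13 mouse Agilent arrays with a dye for each of the paired samples. The deposited files hold scanner intensities per spot and dye (mean signal and median local background) and marks for spots well above background, saturated or uneven. Per the submitters' processing notes they were made with Agilent Feature Extraction 9.5.1.1, and per the file headers its processed intensities were background-subtracted, detrended and dye-normalized. The dye of each sample came from the labels. The deposited value table holds Treg to T-effector ratios in 4 columns and was not used.

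In R 4.3.3 with limma 3.58.1, background was corrected by normexp (offset 50, parameters fitted without spots marked for local background), followed by loess within arrays and quantile normalization of mean signals. Uneven spots were missing. The 28923 probes kept were well above background in 3 or more of the 26 channels, with at most 3 arrays missing and at least 2 channels in each compared group, and each gene was tested at its brightest probe. Names came from accessions (22951 probes), symbols (6659) and synonyms (3109) of the RefSeq table, or from the files (8455). Of 83 other probes of named or called genes, 79 had the same sign. All 26 channels entered 1 fit with a mean per condition and sample type, a dye term, 17 residual degrees of freedom and a correlation within spots of 0.45. Benjamini-Hochberg adjustment ran over all 19901 genes. A gene called here is one with an adjusted p under 0.05. The fit was tested on simulated data.

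The comparison, the 23 gene lists and the rule for named genes were chosen with earlier results of these data known. The rule names 20 anchor genes, the 15 largest rises and falls past the threshold without overlap of channels, and up to 5 called members of each list. Some genes that meet the rule are not reported here. Near-identical gene copies may share probes. Alternatives changed background, normalization, spatial trend, filter, probe, dye, slide, samples in the fit and arrays. Fits without slide B or E, and on IL2 and IL6 arrays alone, were added after the data had been seen. No gene list was tested as a set.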

Additional observations from a re-analysis of the deposited data

Results flagged for a closer look

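The IL6 difference in T-effector without TGFb departed from that with TGFb, by a test of the difference itself, in 14 of the named genes. The gap (without minus with TGFb, log2) was below 0 for Il17f (-3.18), Socs3 (-1.94), Iglv1 (-1.83), AF152371 (-1.50), Myo6 (-1.47), Igfbp4 (-1.42), Il1r1 (-1.42), Ly86 (-1.21), Il6st (-1.20), Nts (-0.94) and Fcer2a (-0.63). Iglv1, AF152371, Ly86, Nts and Fcer2a were already low on the TGFb arrays without IL6. Whether this limited a further fall was not tested, so their gaps alone cannot tell whether the response to IL6 differed. The fitted gap of Serpinb5 was -2.48, but Serpinb5 was not well above background on any IL2 array, so the gap's size is not a measured one. The gap was above 0 for Akr1c18 (2.66) and Cd200 (1.03).

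The difference also departed from that in the Treg samples of the same arrays in 4 named genes. The gap (T-effector minus Treg, log2) was 0.64 for Il2, -0.79 for Ly86, -0.87 for Cstdc6 and -1.18 for Ighm. Groups of 3 arrays are too small for a test of outlying arrays.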

How the results depend on the processing

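Of the 160 genes past the threshold, 31 to 159 still passed under the alternatives. None turned its direction, which says little, since their channels do not overlap. Over the 53 named genes that passed, 292 values under an alternative were short of the threshold. Il21, Penk, Ccr2, Glrx, Edn1, Il2, Ighm, Dapl1, Kif3a, Ly86, Myo6 and Nts passed in 31 of 31. The IL6 effect in T-effector (160 genes) gave 92 genes with median centring, 348 with the spatial trend removed, 85 with arrays of a slide averaged, 66 on the 6 channels alone, 82 without slide E and 32 on the IL2 and IL6 arrays alone, and 88 to 169 without single arrays. The difference between T-effector and Treg (12 genes) gave 2 with median centring, 84 with the spatial trend removed, 4 with slide as a block, 5 with averaged arrays, 4 without slide B, 179 without slide E, 0 on the IL2 and IL6 arrays alone (limma; 645 genes at an unadjusted p under 0.05), and 5 to 182 without single arrays. The difference without minus with TGFb (199 genes) gave 31, 328, 308 and 121 under the same 4 settings, 91 without slide B and 80 without slide E, and 136 to 274 without single arrays. The causes were not tested. Averaging and leaving out arrays lower the number of values, yet without IL6 array 2 the counts of the comparisons rose to 169, 182 and 274. Deviations of same-numbered IL2 and IL6 channels from their group means correlated at -0.21, -0.74 and -0.31. Dye and slide were not removed from them, and the arrays numbered 2 had T-effector RNA in different dyes. These values therefore cannot show whether array numbers pair the samples. With the number as a replicate block the 3 counts were 160, 8 and 178, and 144 of the 160 genes still passed. Probes of low signal can hide a change. Foxp3 was well above background on all 3 IL2 and all 3 IL6 arrays, but at 6.06 to 6.42 its signal was low.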
